A study of Mus musculus with 2 samples.

Results

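The replication-dependent histone genes encode the bulk of the histone protein that packages DNA, and they lie close together in a few gene clusters. They were taken as the protein-coding genes of the GENCODE M21 annotation whose symbols begin with Hist1h, Hist2h, Hist3h or Hist4h, which gave 67 of 21938 protein-coding genes. The Hist1 cluster on chromosome 13 held 54 of them, Hist2 on chromosome 3 held 10, Hist3 on chromosome 11 held 2 and Hist4 on chromosome 6 held 1. By product there were 6 genes for the linker histone H1, 18 for H2A, 18 for H2B, 12 for H3 and 13 for H4. Accessibility was measured by DNase-seq, in which the nuclease DNase I cuts open DNA in nuclei and the cut ends are sequenced. Right cerebral cortex came from 2-month-old males of the B6CASTF1/J strain, F1 hybrids of C57BL/6J with CAST/EiJ, and the labels name no treatment. The series holds 1 group with 2 libraries, replicate 1 from animal 5 and replicate 2 from animal 6, to which the labels give the same donor record. There was therefore no contrast between conditions to test, and every value below is given per library, replicate 1 first.

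Cells make these histones mainly in S phase, when new DNA has to be packaged, and most cells of the adult cortex no longer divide. H2A, H2B, H3 and H4 form the nucleosome core, around which DNA is wound, and H1 binds the linker DNA between cores. Unlike other mRNAs, those of replication-dependent histones have no poly(A) tail and end in a stem-loop that is bound by the protein Slbp. Their transcription is driven in a compartment of the nucleus, the histone locus body, which is organised by Npat, and class-specific promoter elements are bound by factors such as Hinfp at H4 genes, Pou2f1 at H2B genes and NF-Y at CCAAT boxes.

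The stem-loop served as a check on the label of the group. Its consensus, with the ends GG and CC, the run CTTTT and an AG fixed and the other bases free, was searched on the gene strand in the 200 bases after the annotated stop codon, and 60 of the 67 genes held it, with its first base a median of 32 bases after the stop (range 22 to 59). It was found at 6 of 6 H1, 17 of 18 H2A, 14 of 18 H2B, 11 of 12 H3 and 12 of 13 H4 genes. The 3 most common forms are given because they differ by class, with the bases of the pattern in capitals.
Most common form, 38 genes of classes H1, H2A, H2B and H3: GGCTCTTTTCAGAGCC
Second form, 9 genes of the same classes: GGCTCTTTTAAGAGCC
H4 form, 8 genes, all of class H4: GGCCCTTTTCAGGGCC
The genes without a match were Hist1h2an, Hist1h2bp, Hist1h2bq, Hist1h2br, Hist1h3g, Hist1h4a and Hist2h2be.

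The smaller, strict peak set of each library held 91818 peaks in replicate 1 and 75245 in replicate 2, with median heights of 0.932 and 0.806. Bases listed by the authors at a false discovery rate under 0.05 covered 56.7 Mb and 42.6 Mb, and the footprints, short stretches inside open DNA with fewer cuts than their surroundings, numbered 394531 and 241645. No source used here gives the depth or the scaling of peak height, so heights were compared mainly within a library. Of 8 genes that mark cortical neurons, 8 and 6 had a peak near a start (Slc17a7 and Tbr1 had none in replicate 2). By comparison, 0 and 0 of 5 genes that mark other tissues (Alb, Ahsg, Hoxa10, Hoxa2 and Cd3d) had one. The share of all protein-coding genes with such a peak was 63.4% and 59.3%.

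Most histone promoters were accessible in this tissue. A strict peak lay within 1000 bp of a transcript start at 58 of 67 histone genes in replicate 1, against 63.4% of all protein-coding genes. In replicate 2 it was 57 of 67, against 59.3%. The share was 86.6% and 85.1% of histone genes, and the same 57 genes had a peak in both libraries (85.1%, against 58.7% of all protein-coding genes). The mean was 57.5 ± 0.707 genes (SD, n = 2 libraries). At least 1 listed base lay in the window of 59 and 57 genes, against 69.2% and 66.1% of all protein-coding genes, and in both libraries at 57 genes, against 65.3%. At least 1 footprint lay there at 58 and 57 genes, against 66.5% and 62.3%, and in both at 57, against 61.7%. The window joins the 1000 bp around every transcript start, so a coding gene with several starts can have a longer window. Of the 67 histone genes, 62 have 1 transcript. Window shares of histone and coding genes, here and below, were not matched for window length. In bulk tissue a promoter open in few cells and one that is less open in every cell cannot be told apart.

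The peaks of histone genes were of ordinary height as a group. The tallest peak in the window had a median height of 2.97 and 2.57 over the histone genes with a peak, against 3.02 and 2.17 over all protein-coding genes with a peak. It stood above the median of all coding genes at 27 of 58 histone genes in replicate 1 and at 38 of 57 in replicate 2. Heights ran from 0.494 to 8.05 and from 0.753 to 5.59. A histone gene had a median of 842 and 777 listed bases in its window, against 897 and 612.5 for a coding gene. It had a median of 7 and 5 footprints, against 6 and 3. These heights, listed bases and footprints were not matched for window length either, which can be longer at coding genes with several starts.

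Because these genes lie close together, the windows of neighbours overlap and members are not independent. The windows held 86 and 71 distinct peaks, of which 28 and 23 lay near 2 or more histone genes and none near more than 3. The median peak was 220 and 240 bp wide, and the centre of a gene's tallest peak lay at a median of -48 and -62.5 bp from its start, upstream being negative. Heights were therefore also read over the start region alone, from 250 bases before to 50 bases after the 5′ end of the gene. There 56 genes had a strict peak in replicate 1, against 50.2% of all protein-coding genes, and 56 in replicate 2, against 46.3%. Neighbouring genes can share a peak in this region too, so these genes are not independent either. A coding gene with several starts can have its peak at another start, outside this region. The median height over the start region was 2.81 and 2.26, against 3.10 and 2.24 for all coding genes.

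**Figure D1:**
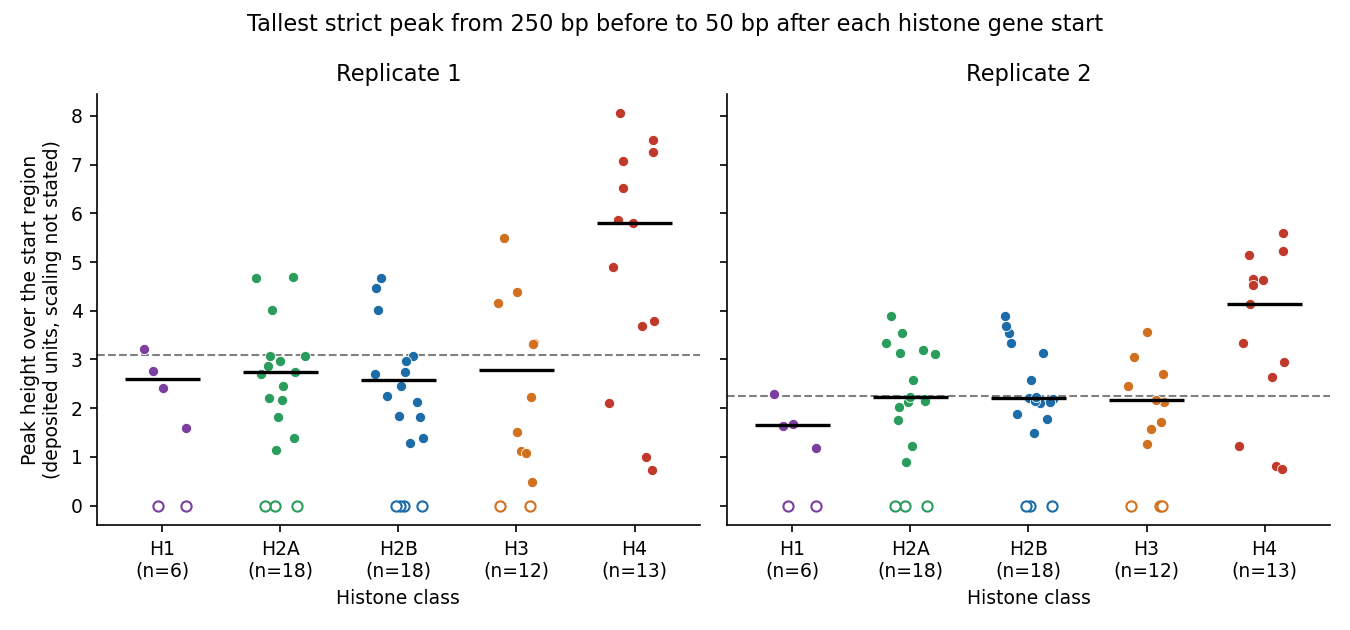
Height of the tallest strict peak over the start region of each histone gene (y axis, deposited units whose scaling is not stated) by histone class (x axis), with replicate 1 on the left and replicate 2 on the right. Points are genes, open circles at 0 are genes with no strict peak there, black bars are medians of the genes with a peak, and the dashed line is the median of all protein-coding genes (3.10 and 2.24). The H4 median of 5.80 and 4.13 lies above the line in both panels.

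H4 genes had the tallest peaks of the 5 classes by median. All 13 had a peak in both libraries, with a median height of 5.80 and 4.13 over the start region, and 10 of 13 exceeded the median of all coding genes in both libraries within the wider window. Hist1h4d stood at 7.26 and 5.59, Hist1h4c at 7.50 and 5.22, and Hist4h4, the lone gene of its cluster, at 8.05 and 4.13. These are the 3 tallest H4 genes by the mean of both libraries. Hist1h4m had only 1.01 and 0.814 and Hist1h4n 0.726 and 0.753. These are near-copies of each other, and only 3.54% of the 31-base words in either window occur once in the genome.

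The promoter of Hist1h4d is shown because it had the tallest H4 peak by the mean of both libraries and holds the elements of a histone promoter within a short stretch. It is the 150 bases before the gene start, at chr13:23581448-23581597 on the plus strand of GRCm38 (mm10), 5′ to 3′. Capitals mark, in order, a Sp1 box, the core of the H4 element, a CCAAT box on the opposite strand and a TATA box.
Hist1h4d: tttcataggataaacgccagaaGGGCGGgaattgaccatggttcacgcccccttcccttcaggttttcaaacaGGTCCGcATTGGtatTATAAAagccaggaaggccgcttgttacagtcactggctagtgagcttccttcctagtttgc
In replicate 1 a footprint of 46 bp ran from base 56 to base 101 of this stretch, and in replicate 2 one of 42 bp ran from base 58 to base 99. Both covered the H4 core, the CCAAT box and the TATA box together.

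The H4 core GGTCCG, part of the element that Hinfp is known to bind, was found in the 250 bases before the start at 12 of 13 H4 genes, all but Hist1h4a, against 7.69% of all protein-coding promoters. It began between 80 and 11 bases upstream, with a median of 49. The 12 copies are shown with 20 bases before the core and up to 24 after it, because the footprints lay here. Capitals mark the core and any TATA box, CCAAT box or Sp1 box in the stretch, and the Sp1 box on the opposite strand of Hist1h4j and Hist1h4k overlaps the core.
Hist1h4b at chr13:23756923-23756972, plus strand: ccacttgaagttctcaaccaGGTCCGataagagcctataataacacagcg
Hist1h4c at chr13:23698475-23698524, minus strand: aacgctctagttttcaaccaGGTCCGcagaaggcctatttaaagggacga
Hist1h4d at chr13:23581501-23581550, plus strand: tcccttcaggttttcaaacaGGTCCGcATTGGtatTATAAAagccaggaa
Hist1h4f at chr13:23551685-23551734, minus strand: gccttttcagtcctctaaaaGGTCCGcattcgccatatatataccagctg
Hist1h4h at chr13:23531019-23531049, plus strand: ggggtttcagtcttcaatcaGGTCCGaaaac
Hist1h4i at chr13:22041379-22041428, minus strand: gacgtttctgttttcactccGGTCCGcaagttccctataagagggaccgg
Hist1h4j at chr13:21734996-21735045, plus strand: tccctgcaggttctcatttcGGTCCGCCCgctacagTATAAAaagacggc
Hist1h4k at chr13:21750556-21750605, minus strand: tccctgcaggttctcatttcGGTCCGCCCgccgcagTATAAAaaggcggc
Hist1h4m at chr13:21811679-21811728, plus strand: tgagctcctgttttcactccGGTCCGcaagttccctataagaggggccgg
Hist1h4n at chr13:21832214-21832263, minus strand: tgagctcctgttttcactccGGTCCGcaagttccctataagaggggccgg
Hist2h4 at chr3:96263350-96263399, minus strand: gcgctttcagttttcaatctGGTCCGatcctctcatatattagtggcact
Hist4h4 at chr6:136804434-136804483, minus strand: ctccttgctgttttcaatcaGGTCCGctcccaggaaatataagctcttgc
Hist1h4m and Hist1h4n have the same 50 bases, and Hist1h4j and Hist1h4k have the same 20 bases before the core.

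Wide footprints lay over many of these cores. Counting a copy when the core lay within a footprint extended by 5 bp on each side, 11 and 9 of the 12 H4 copies were in a footprint, 8 of them in both libraries, and the footprint as deposited held the whole core at 8 and 7 genes. Over the 11 and 9 footprints counted with the extension, the median width as deposited was 34 bp in replicate 1 and 34 bp in replicate 2. The range was 14 to 48 bp and 7 to 47 bp, and the median of all footprints was 9 bp in either library. The narrowest, at Hist1h4f in replicate 1 and at Hist1h4m in replicate 2, reached only the edge of the core. A footprint that holds a motif is more often a wide one, so those holding GGTCCG upstream of the other protein-coding genes were measured as well. These numbered 482 and 282, with a median width of 16 and 12 bp and a range of 7 to 80 bp and 7 to 45 bp. The H4 footprints were at least 40 bp wide at 5 and 2 genes, against 6.02% and 1.06% of those at other coding genes. Neither set was matched for peak height or for distance from the start. Hist1h4a, which has no core, had upstream footprints of 32, 34 and 36 bp in replicate 1 and of 27, 28 and 39 bp in replicate 2. At Hist1h4c the footprint was the same in both libraries, 47 bp from 70 to 24 bases upstream of the start. At Hist1h4b it was 45 and 38 bp wide, at Hist4h4 46 and 32 bp, at Hist1h4i 48 and 34 bp, and at Hist2h4 16 and 38 bp.

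Over all classes, GGTCCG had 14 distinct copies upstream of histone genes, all touching listed bases in both libraries. Of these 13 (92.9%) and 9 (64.3%) lay in an extended footprint. Among copies touching listed bases upstream of any protein-coding gene, the share was 33.4% and 21.2%. These shares, and those of other motifs below, were not matched for peak height or for distance from the start. The median height over the start region was 5.80 and 4.13 at H4 genes, against 3.10 and 2.24 at all coding genes. The part of this in the footprint shares was not tested. A match of letters is a description and does not show which protein was bound.

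**Figure D2:**
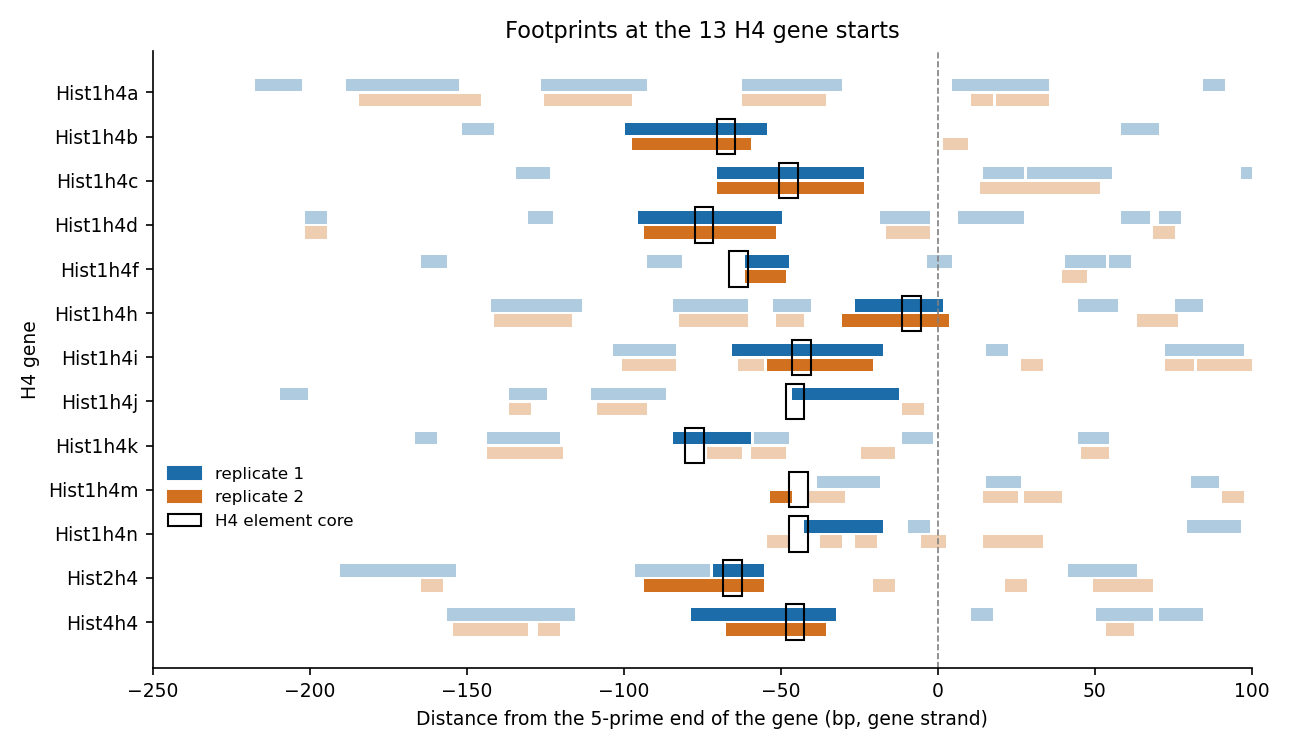
Footprints at the 13 H4 genes (rows), as bars along the distance from the 5′ end of the gene in bp on the gene strand (x axis), with replicate 1 above replicate 2 in each row. Full colour marks the footprint counted as holding the H4 core, pale bars are other footprints, and black boxes are the 6 bases of the core. At Hist1h4b, Hist1h4c, Hist1h4d, Hist1h4h, Hist1h4i, Hist2h4 and Hist4h4 a footprint spans the whole core in both libraries, and Hist1h4a has no core.

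H2A and H2B genes were mostly arranged head to head. There were 13 pairs that start in opposite directions from a shared stretch of DNA, 12 of them an H2A with an H2B gene and 1 an H2B with an H3 gene, and the stretch between the 2 starts was 175 to 659 bp long. A strict peak lay in that stretch at 10 of the 13 pairs in both libraries. At the H2A/H2B pairs with a peak, every base of the stretch was listed in both libraries, while 38.7% and 42.9% was listed in the 659 bp between Hist1h2bh and Hist1h3f. Of the 18 H2A and 18 H2B genes, 15 of each had a peak in the window in either library. The median height over the start region was 2.74 and 2.23 for H2A and 2.58 and 2.20 for H2B, with ranges of 1.13 to 4.70 and 0.906 to 3.89 for H2A and of 1.30 to 4.66 and 1.48 to 3.89 for H2B. The values of the classes overlapped. Both genes of each H2A/H2B pair with a peak had the same height over the start region, from a shared peak. The values of these 2 classes are therefore not independent.

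The tallest of these pairs by the mean of both libraries was Hist1h2bf with Hist1h2ad, at 4.66 and 3.33. The peak between Hist1h2ag and Hist1h2bj had a height of 4.02 and 3.54, and in replicate 2 this pair and Hist1h2an with Hist1h2bp, at 3.89, were taller. In the Hist2 cluster, the H2A gene Hist2h2aa2 stood at 4.70 and 3.20 and the H2B gene Hist2h2bb at 4.47 and 3.69. Hist2h2aa1, whose window shares 56.6% of its words with that of Hist2h2aa2, had 2.87 and 1.75. The pair Hist2h2ac and Hist2h2be had 2.97 and 2.23.

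Each of these sequences shows a shared or single H2A or H2B promoter. The stretch between Hist1h2bf and Hist1h2ad is the tallest pair by that mean (chr13:23574197-23574380). That between Hist1h2ac and Hist1h2bc (chr13:23683949-23684198) was chosen after its values were seen because it holds CCAAT boxes, a TATA box and an octamer (ATTTGCAT). The last is the 150 bases before Hist2h2bb, the tallest H2B gene by that mean (chr3:96269602-96269751). All are on the plus strand of GRCm38, and capitals mark these motifs on either strand.
Hist1h2bf/Hist1h2ad: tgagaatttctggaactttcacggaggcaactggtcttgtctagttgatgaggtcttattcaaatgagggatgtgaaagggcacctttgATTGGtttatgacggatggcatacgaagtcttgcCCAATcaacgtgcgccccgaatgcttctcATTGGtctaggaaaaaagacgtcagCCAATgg
Hist1h2ac/Hist1h2bc: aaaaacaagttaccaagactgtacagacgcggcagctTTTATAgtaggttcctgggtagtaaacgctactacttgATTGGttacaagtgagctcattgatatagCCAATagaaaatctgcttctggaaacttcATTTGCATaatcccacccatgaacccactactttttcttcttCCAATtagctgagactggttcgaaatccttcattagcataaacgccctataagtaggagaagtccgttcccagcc
Hist2h2bb: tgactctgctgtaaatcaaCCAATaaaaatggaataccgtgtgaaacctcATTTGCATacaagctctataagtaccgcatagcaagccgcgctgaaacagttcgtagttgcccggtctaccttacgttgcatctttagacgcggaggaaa
Between Hist1h2bf and Hist1h2ad, the CCAAT boxes begin at bases 90, 124, 153 and 178. A footprint from base 126 to base 147 in replicate 1 and one from base 131 to base 142 in replicate 2 began inside or just after the second box. Between Hist1h2ac and Hist1h2bc, a footprint of 24 bp from base 127 to base 150 in replicate 2 held the octamer at base 134, and replicate 1 had none there.

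The CCAAT box was present in front of all 18 H2A and all 18 H2B genes, counting the 250 bases before each start and both strands, and in front of 54 of 67 histone genes (80.6%), against 36% of all protein-coding genes. Paired genes share much of this sequence, so these counts are not independent. The octamer, bound by Pou2f1, was found at 7 H2A and 8 H2B genes and at no gene of another class. This is 22.4% of histone genes, against 1.45% of all coding genes. Paired genes share copies here too: there were 10 distinct copies, and 8 genes held the octamer on the gene strand. Copies in listed bases, with a copy shared by paired histone genes counted once, did not all carry footprints. For CCAAT 26.3% and 29.5% of 95 copies did, against 29.2% and 21.8% at all coding genes, and for the octamer 1 of 8 and 3 of 9 did, against 6.33% and 9.15% at all coding genes.

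Replicate 2 was the higher library at many of these pairs, which was rare elsewhere. Of the 57 histone genes with a peak in both libraries, 15 (26.3%) were higher in replicate 2, against 1.44% of all coding genes with a peak in both. Genes of a head-to-head pair that share a peak are each counted, so the 15 genes stand for fewer peaks. The median ratio of replicate 1 to replicate 2 was 1.23 at histone genes, against 1.49 at all coding genes. Of the 10 pairs with a peak in both, 6 were higher in replicate 2: Hist1h2an with Hist1h2bp had 2.70 and 3.89, and Hist1h2ae with Hist1h2bg had 1.40 and 2.19 in the stretch between them. Hist1h3i, an H3 gene, had 1.08 and 2.17, and its ratio of 0.495 was the lowest of all 12882 coding genes with a peak in both.

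Repeated sequence moved with this. Of histone genes whose window was under 80% single-copy, 14 of 34 were higher in replicate 2, and of those at least 80% single-copy 1 of 23 was, which was Hist1h3i. For all coding genes the shares were 7.65% of 405 and 1.24% of 12477. Histone genes of a pair that share a peak are each counted here as well. By class the median ratio was 1.56 for H1, 1.25 for H2A, 1.09 for H2B, 1.22 for H3 and 1.30 for H4. Spearman's rho between the libraries was 0.836 over the 57 histone genes, some of which share a peak, and 0.968 over the 12882 coding genes. No source used here says how reads that align to several places were treated, and the part of repeated sequence in this was not tested.

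H3 genes covered a wide range. In the window 11 and 10 of 12 had a peak, and over the start region 10 and 9, with a median of 2.78 and 2.17 and a range of 0.494 to 5.49 and 1.27 to 3.57. Hist1h3b was the tallest over its own start by the mean of both libraries, at 5.49 and 3.05, followed by Hist1h3e at 4.39 and 3.57, which was the taller in replicate 2. Hist1h3a appeared taller in the window, at 5.85 and 5.15, but that peak lay at the start of its neighbour Hist1h4a, and its own start region had 1.11 and 1.58. Hist2h3b likewise had 4.47 and 3.69 from the peak of Hist2h2bb and 2.24 and 1.71 over its own start. Hist1h3f, the H3 gene of the mixed pair, had no peak over its start region.

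The 150 bases before Hist1h3b (chr13:23752117-23752266, plus strand) are shown as the tallest H3 start by that mean, and those before Hist1h3a (chr13:23762387-23762536, minus strand) as the H3 gene whose tall peak belongs to a neighbour. Capitals mark CCAAT and TATA boxes.
Hist1h3b: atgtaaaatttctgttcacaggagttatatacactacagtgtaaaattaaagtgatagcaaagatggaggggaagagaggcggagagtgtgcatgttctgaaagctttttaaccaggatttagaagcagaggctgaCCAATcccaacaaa
Hist1h3a: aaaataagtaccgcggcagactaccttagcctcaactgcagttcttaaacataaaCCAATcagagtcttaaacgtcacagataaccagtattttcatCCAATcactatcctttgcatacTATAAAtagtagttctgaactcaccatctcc
A footprint covered most of the CCAAT box at base 137 of Hist1h3b in replicate 1, from base 138 to base 150, and one from base 143 to base 150 lay just after it in replicate 2. At Hist1h3a a footprint between the CCAAT boxes, from base 71 to base 84 and from base 72 to base 83, was seen in both libraries.

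Of the H1 genes, 4 of 6 (66.7%) had a peak near a GENCODE start in both libraries. This is near the 58.7% of all protein-coding genes. Hist1h1d had a peak at its RefSeq start (2.43 and 1.57). The 4 genes with a peak near a GENCODE start had a median height of 2.59 and 1.65 over the start region. The range was 1.59 to 3.22 and 1.19 to 2.29. Hist1h1c was the tallest, at 4.32 and 2.86 in the window and 3.22 and 2.29 over its start. Its window peak was centred 1012.5 bp after the start in both libraries and did not cover the start. Next in mean height were Hist1h1e at 2.76 and 1.64 and Hist1h1a at 2.42 and 1.67. The windows of H1 genes are almost free of repeated sequence, with a median of 99.0% single-copy words.

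The H1 box AAACACA, an element known from H1 promoters, was found at 4 of 6 H1 genes, against 5.66% of all coding genes. Hist1h1d, which had none, was searched before its GENCODE start, 1770 bp upstream of its RefSeq start. The 4 copies are shown with 20 bases before and 24 after the box, with the 150 bases before Hist1h1c (chr13:23738658-23738807, plus strand) for context. Capitals mark the H1 box, and the CCAAT or Sp1 boxes where present.
Hist1h1c: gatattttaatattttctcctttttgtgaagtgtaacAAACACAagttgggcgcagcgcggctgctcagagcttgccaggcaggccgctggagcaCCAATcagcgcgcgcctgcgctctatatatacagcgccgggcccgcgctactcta
Hist1h1b at chr13:21780712-21780762, minus strand: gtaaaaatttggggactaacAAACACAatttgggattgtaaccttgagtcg
Hist1h1c at chr13:23738675-23738725, plus strand: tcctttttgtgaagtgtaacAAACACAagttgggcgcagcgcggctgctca
Hist1h1e at chr13:23622643-23622693, minus strand: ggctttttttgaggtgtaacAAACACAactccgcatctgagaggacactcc
Hist1h1t at chr13:23695677-23695727, plus strand: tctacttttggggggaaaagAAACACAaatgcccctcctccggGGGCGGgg
No copy of this box lay in a footprint. Across histone promoters 7 copies touched listed bases in each library and 0 were in an extended footprint, against 9.25% and 7.09% of copies at all coding genes. In the 51 bases shown for Hist1h1c, where the box ends at base 27, the nearest footprints began at base 32 in replicate 1 and at base 33 in replicate 2. At Hist1h1b, a replicate 2 footprint from base 28 to base 37 of the stretch shown lay directly after the box, which ends at base 27.

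Of the 67 genes, 9 had no strict peak in either library. Hist1h2aa and Hist1h2ba, a pair known as testis histones, and Hist1h1t, the testis linker histone, had no peak, no listed base and no footprint. Their windows were 89.4%, 88.4% and 100% single-copy, so little of them was repeated sequence. The promoter of Hist1h2aa is shown because it holds the same motifs as the open H2A promoters, in the 250 bases at chr13:23934212-23934461 on the plus strand, with TATA, CCAAT and octamer letters in capitals on either strand.
Hist1h2aa: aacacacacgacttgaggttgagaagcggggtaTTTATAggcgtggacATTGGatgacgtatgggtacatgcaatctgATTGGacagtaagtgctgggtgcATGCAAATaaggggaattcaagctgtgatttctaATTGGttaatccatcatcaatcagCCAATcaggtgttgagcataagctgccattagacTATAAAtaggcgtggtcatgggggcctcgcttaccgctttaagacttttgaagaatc
These letters, with 4 CCAAT boxes, 2 TATA boxes and 1 octamer, are thus present in a stretch with no listed base.

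Hist1h2ao, Hist1h2ap, Hist1h2bq and Hist1h2br also had no peak and no listed base, and 0% of the words in their windows occur once in the genome. They form 2 pairs in an inverted duplication that also holds Hist1h4m and Hist1h4n. Hist2h3c1 had no peak, with 105 and 0 listed bases and 19.2% single-copy words, and its near-copy Hist2h3c2 had a peak of 0.494 in replicate 1 only, with 20.2%. For these 6 genes an unmappable stretch and a closed promoter cannot be told apart.

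The last of the 9 was Hist1h1d. Its GENCODE start lies 1770 bp upstream of its RefSeq start, and the RefSeq start was covered by a peak of 2.43 at chr13:23554901-23555220 in replicate 1 and of 1.57 at chr13:23554920-23555125 in replicate 2. These peaks lay 1639 and 1658 bp from the GENCODE start, outside its window. Of the 61 genes matched in RefSeq, 51 had a start within 50 bp of the GENCODE start, and Hist1h1d alone differed by over 100 bp.

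Genes with much repeated sequence were also counted apart. Among the 40 histone genes under 80% single-copy, 35 and 34 had a peak, against 16.3% and 15% of 2778 protein-coding genes under the same limit. The sets share only this limit and were not matched for how much of the window is repeated, or for kind of gene. Among the 27 others 23 and 23 had one, against 70.3% and 65.7% of 19160. The median window was 75.3% single-copy, against 96.9% for all coding genes.

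Accessibility was highest around the start. Among histone genes with a peak, 93.9% and 95.0% of bases in the 200 bp before the start were listed, against 83.3% and 80.7% for coding genes with a peak. The maximum, 98.3% and 98.2%, was a plateau from 60 bp upstream to 20 bp after the start in replicate 1 and to 40 bp after it in replicate 2. From 200 to 500 bp inside the gene the share was 61.5% and 48.2%, against 74.8% and 63.8%, and from 500 to 1000 bp 32.5% and 27.6%, against 46.5% and 35.1%. From 1000 to 500 bp upstream the share was 37.0% and 33.1%, against 23.6% and 18.5%. Genes were included for a peak near any of their starts, while the distance runs from the 5′ end alone. A coding gene whose peak lies at another start can therefore lower the coding share around the 5′ end. The part of such genes in these differences was not tested. Single-copy words made up 85.1% in the 200 bp before the start and 45.2% from 200 to 500 bp inside the gene, and the part of this in the lower listed share there was not tested.

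**Figure D3:**
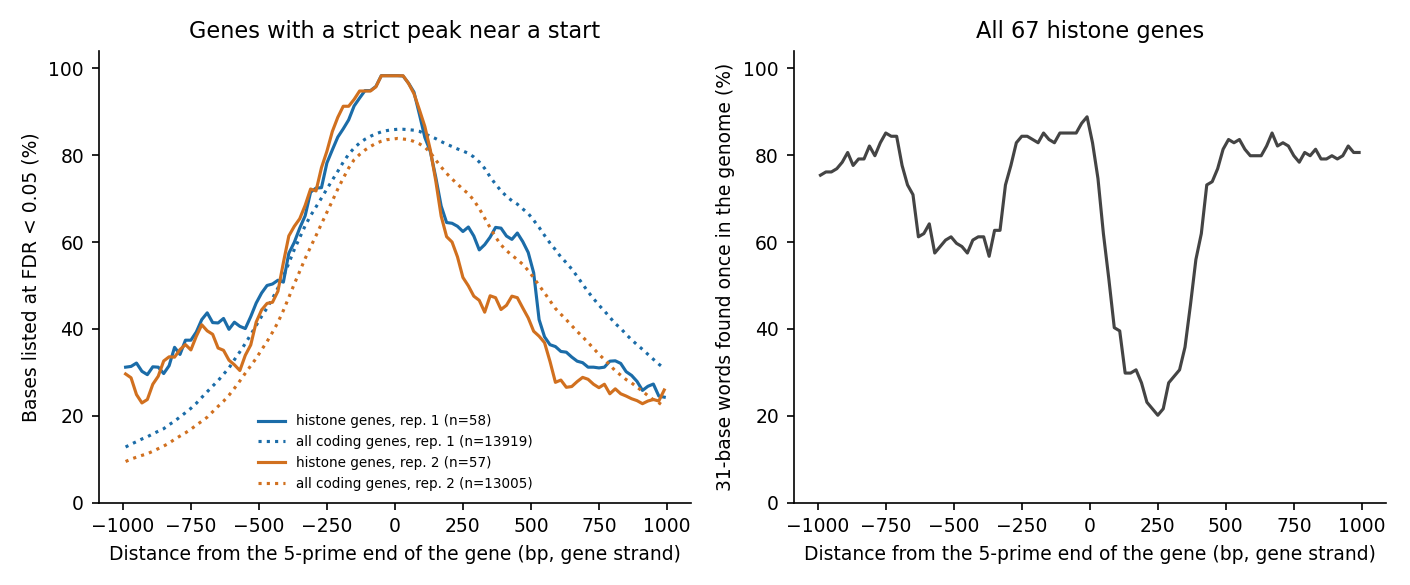
Left, share of bases listed at a false discovery rate under 0.05 (y axis, %) by distance from the 5′ end of the gene in bins of 20 bp (x axis), for histone genes with a peak (solid, n = 58 and 57) and all coding genes with a peak (dotted, n = 13919 and 13005), replicate 1 in blue and replicate 2 in orange. Right, share of 31-base words found once in the genome (y axis, %) at all 67 histone genes. The solid lines reach 98.3% and 98.2% around the start and lie below the dotted lines from 200 to 500 bp inside the gene. Genes with a peak near any of their starts are included, so the peak of a coding gene can lie away from its 5′ end.

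The genes fell into 7 blocks when split at gaps of over 100 kb, 4 of them on chromosome 13. The largest, of 233.4 kb with 29 histone genes, had a peak at 27 and 27 of them. It held 50 and 45 strict peaks, which is 21.4 and 19.3 per 100 kb, against 3.51 and 2.88 per 100 kb over chromosome 13. Of those peaks 40 and 36 lay at histone gene starts, and the chromosome value was not matched for gene density. The block of 121.8 kb with 18 genes had a peak at 14 and 14, and the 4 without were the duplicated genes named above. In this block the median height was 2.02 and 2.15, against 3.34 and 2.57 in the largest block. All 5 genes of the 8.5 kb block had a peak, and the 1.1 kb block of the testis pair Hist1h2ba and Hist1h2aa had none.

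**Figure D4:**
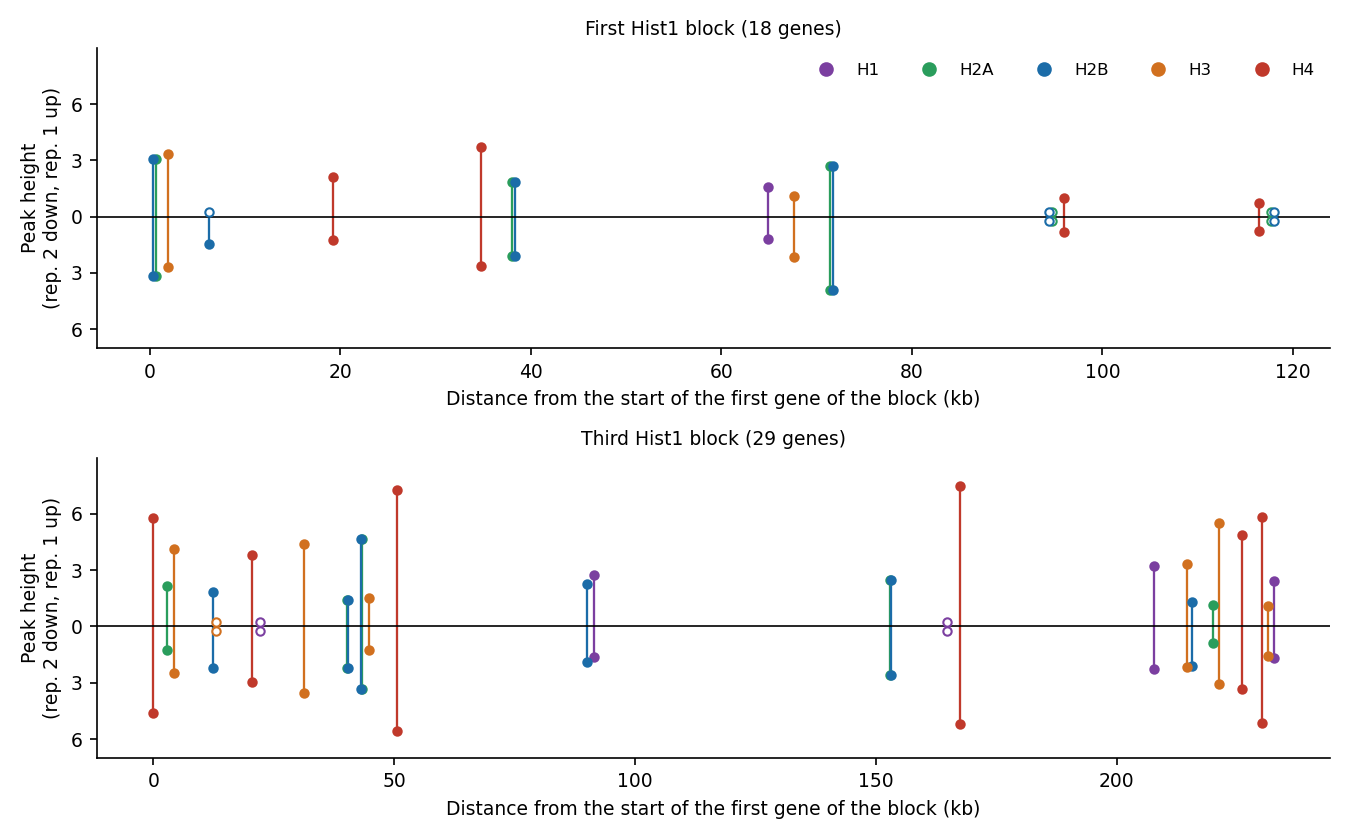
Height of the tallest strict peak over the start region of each histone gene (y axis, deposited units, replicate 1 upward and replicate 2 downward) along the Hist1 blocks of 121.8 kb (top) and 233.4 kb (bottom), against the distance in kb from the start of the first gene of the block (x axis). Colours are histone classes, and open circles near 0 are genes with no strict peak over the start region. The tallest lines of the lower panel are H4 genes, and the open circles at the right end of the upper panel are the duplicated H2A and H2B genes.

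In the Hist2 cluster, 50.3 kb long, 9 and 8 of 10 genes had a peak. Hist2h4 was its tallest, at 7.07 and 4.54, and Hist2h2ab had 2.97 and 2.23 in the window and 2.22 and 2.02 over its start. In Hist3 the H2A gene Hist3h2a, which lies beside Trim17, had 3.14 and 3.12 in the window, from peaks at different places. Over its start Hist3h2a had 3.07 and 3.12. The H2B gene Hist3h2ba had 2.13 and 1.77.

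Promoter elements were spread by class. The TATA letters TATAAA, counted anywhere in the 250 bases and on either strand, were found at 34 of 67 histone genes (50.7%). The share of all coding genes was 11.5%. By class it was 4 of 6 H1, 10 of 18 H2A, 10 of 18 H2B, 4 of 12 H3 and 6 of 13 H4 genes. Paired genes can share a copy, so there were 33 distinct copies, and 27 genes held the letters on the gene strand. Not every match lies where a TATA box would. At Hist1h4i, Hist1h4m and Hist1h4n it began at -137, -128 and -128 bp from the start. CCAAT was found at 5 of 6 H1, 9 of 12 H3 and 4 of 13 H4 genes beside the H2A and H2B genes given above. The Sp1 box GGGCGG was found at 10 of 13 H4 and 4 of 6 H1 genes but at 3 of 18 H2A, 0 of 18 H2B and 2 of 12 H3, in all 28.4% against 39%. The E2F letters TTTCCCGC were found at 1 gene (1.49%, against 1.06%) and TTTGGCGC at 0 (against 0.52%). Hist1h1d enters the H1 counts by the stretch before its GENCODE start, 1770 bp upstream of its RefSeq start. That stretch held 3 TATA matches, none in listed bases, and no CCAAT, H1 or Sp1 box. The 250 bases before a histone gene had a median GC content of 44.4%, against 54% for all coding genes, and an observed over expected CpG ratio of 0.715, against 0.486.

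Of TATA copies in listed bases, 42.3% and 33.3% lay in an extended footprint at histone genes, against 15.4% and 13.4% at all coding genes. For the Sp1 box the shares were 59.3% and 45.8%, against 58.8% and 46.3%. Extended footprints covered 26.4% and 24.1% of the upstream bases of histone genes. Some TATA boxes, as in Hist1h4d, lie in the same wide footprint as an H4 core.

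**Figure D5:**
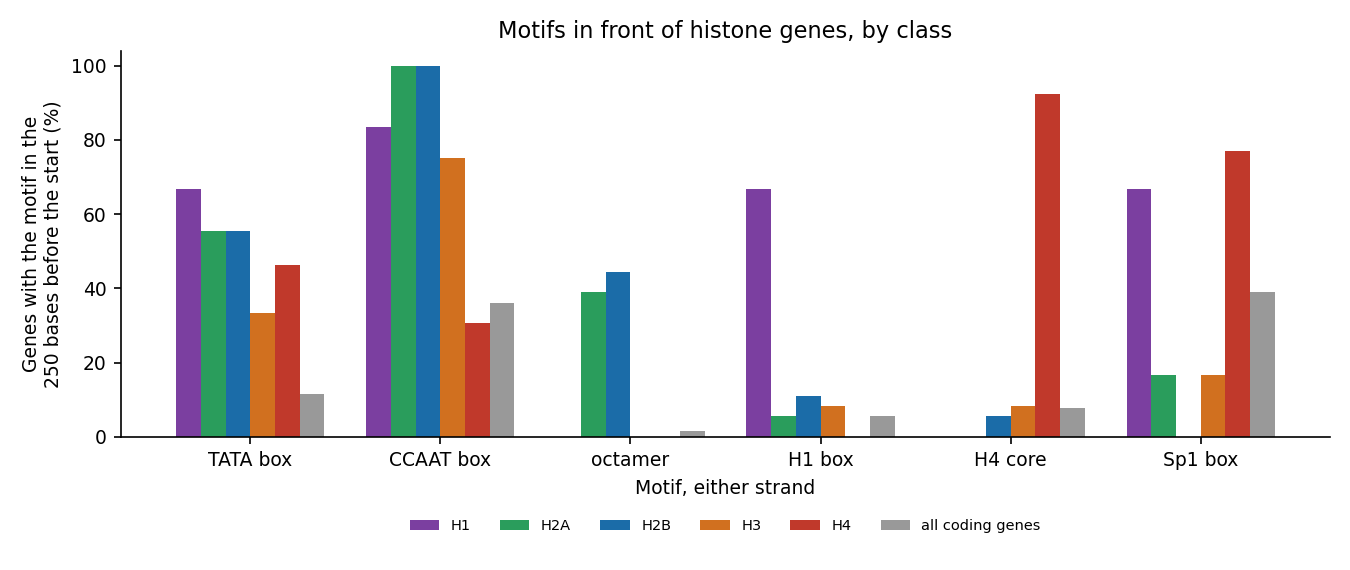
Share of genes (y axis, %) with each motif (x axis) in the 250 bases before the gene start, on either strand, for the 5 histone classes and for all 21938 protein-coding genes in grey. CCAAT stands at 100% for H2A and H2B, the octamer occurs only at H2A and H2B among the classes, and the H4 core at 12 of 13 H4 genes.

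Genes that work with these histones were accessible as well. Every one of the 11 replication-independent histone genes, which are used outside S phase too, had a peak in both libraries, against 63.4% and 59.3% of all protein-coding genes, with a median height of 3.70 and 3.22, against 3.02 and 2.17 for all coding genes with a peak. H2afx, of the DNA damage response, was the tallest at 6.71 and 4.71, followed in mean height by H2afv, an H2A.Z variant gene, at 6.44 and 4.60. All 15 genes for histone transcription and 3′ processing had one, with a median of 5.20 and 3.26, led in mean height by Nfya, a subunit of NF-Y, at 7.24 and 6.18 and by Casp8ap2, a histone locus body protein, at 7.42 and 5.37. Hinfp itself had 6.21 and 4.58, and Npat 6.42 and 4.71.

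All 17 genes of S phase and proliferation had a peak, against 63.4% and 59.3% of all protein-coding genes. Their median height was 3.74 and 2.56, against 3.02 and 2.17 for all coding genes with a peak. They were led in mean height by the replicative helicase subunits Mcm4 at 8.10 and 5.41 and Mcm5 at 7.48 and 5.28. Top2a, a topoisomerase, was the tallest in replicate 2, at 6.15 and 5.73. Mki67, a marker of dividing cells, had 1.33 and 1.20. All 8 histone chaperone genes had one, with a median of 3.68 and 2.66, led by Daxx at 6.49 and 4.50 and Asf1b at 6.08 and 4.21. A peak shows access of the nuclease to a promoter, and transcription of these genes was not measured.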

How the data were processed

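The authors deposited 2 peak sets, false discovery rates per base and footprints for each library, all derived from its mm10 alignments after filtering and without pooling, per the labels and descriptions. The aligner, callers, versions and treatment of reads that align to several places were not given in the sources used here. Peak height is a signal deposited by the authors, whose scaling is not stated. The authors deposited the false discovery rate as a q-value for bases under 0.05. Footprints bear a single deposited value, 0.01, taken here for a p-value threshold.

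Chromosome names and lengths matched GRCm38.p6. The smaller peak set was used. A gene had a peak, listed base or footprint if at least 1 bp of it lay within 1000 bp of any GENCODE M21 transcript start, and genes of the mitochondrial chromosome were left out. Upstream sequence was taken from the RefSeq genome sequence of GRCm38.p6, and motifs were searched on both strands. Single-copy share is the share of 31-base words, 1 every 10 bases, that occur once in the genome. Overlaps, coverage, motif search and word counts were tested on simulated data, where all 300 planted peaks and all 400 planted motifs were found. Python 3.11.15, numpy 2.4.6, pandas 2.3.3 and scipy 1.17.1 were used. The members, lists and motifs were chosen with earlier results of these data known. Named genes were the 3 tallest of each class by the mean of both libraries, all without a peak in a library, all of Hist2 to Hist4 and the 2 tallest of each list. Other named genes were chosen after their values were seen. With 1 group of 2 libraries no test was run. Depth is not given, so no counting interval is given. Alternatives covered the window, starts, peak set, overlap rule, false discovery rate, footprint extension, single-copy members and each library left out.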

Additional observations from a re-analysis of the deposited data

How the results depend on the processing

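Values here are means of both libraries. The number of histone genes with a peak, 57.5, stayed within 1.5 times of itself (53.5 to 64.5) under every alternative except the limit to members at least 80% single-copy, which keeps 27 genes by construction. Of those, 23 had a peak, 23 listed bases and 23 a footprint, with 44.5 distinct peaks and a median of 1076 listed bases. The median peak height of 2.77 ran from 2.52 to 2.97 over all alternatives. The median of listed bases, 809.5, depended on the window, at 655.5 with 500 bp and 1114.5 with 2500 bp, and was 582 at a false discovery rate of 0.001 or below. With alternatives chosen after seeing the data it was 300 over the start region, whose whole length that is, and 739.5 from RefSeq starts, and the start region held 49.5 distinct peaks. Footprints with a motif numbered 78.5, and 40.5 without extension. On the gene strand alone the octamer was found at 8 genes in place of 15. Leaving out a library gave 57 to 58 genes with a peak, heights of 2.57 to 2.97, 57 to 59 genes with listed bases, 777 to 842 listed bases, 57 to 58 genes with a footprint, 71 to 86 distinct peaks and 69 to 88 footprints with a motif. Among members at least 80% single-copy the median height was 3.14 and 2.46, against 3.07 and 2.18 for such coding genes, so that replicate 1 stood above the coding genes there and below them over all members (2.97 against 3.02). No paired analysis was possible because there is 1 group and the result comes from no test. Limits are the unknown depth and height scaling, the repeated sequence at histone genes, windows shared by neighbours, and 2 libraries from 1 donor record.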

Other observations

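Histone pseudogenes inside and outside the clusters also had strict peaks within 1000 bp of a start. Hist3h2bb-ps, beside Hist3h2a on chromosome 11, had 3.14 and 3.12. These are the peaks given for Hist3h2a, which lie at different places in the 2 libraries. Hist1h2aj, in the Hist1 block of 121.8 kb, had 1.61 and 1.48, which are the peaks of Hist1h2bm, and none lay over its own start region in replicate 1. Hist1h2al, on chromosome 13 away from the clusters, had 1.21 and 0.753.

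In the largest Hist1 block, 10 and 9 strict peaks lay farther than 1000 bp from any histone gene start. Beside the peak at the RefSeq start of Hist1h1d, the tallest in replicate 1 was 2.12 at chr13:23701281-23701440, 2827 bp from the nearest histone gene start, with 1.70 at chr13:23701301-23701480 in replicate 2. In replicate 2 the tallest was 2.37 at chr13:23585861-23586100, with 1.69 at chr13:23585801-23586040 in replicate 1. A peak at the start of Hfe, an iron regulator and the block's other protein-coding gene, had 0.864 and 0.453.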
